A study of Homo sapiens with 17 samples.

Results

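Toyocamycin, a natural adenosine analog, was compared with its solvent DMSO after 10 h in YB5 cells by RNA sequencing. The comparison rests on 3 of the 17 labelled libraries of a time course: toyocamycin 10 h replicates 1 and 2, both at 250 nM, and a single DMSO library of 10 h, numbered 2. These 3 were chosen by treatment and time in the labels, not by any measured value. YB5 is a subline of the human colon cancer line SW48 that carries a single insertion of a methylated, silent CMV promoter driving a GFP gene, in treated and control cells alike. Replicate 1 carries batch 1 in the labels, while replicate 2 and the DMSO library carry batch 2. Treated cells and controls come from a single cell line, the control arm has 1 labelled library, and nothing in the labels says that the 2 treated libraries were separate cultures, so the p-values may measure technical spread.

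The kinase CDK9, with a T-type cyclin, forms P-TEFb, which releases RNA polymerase II from its pause near the promoter and so permits elongation. Most P-TEFb is held inactive by the 7SK RNA together with HEXIM1, MEPCE and LARP7. Genes with short-lived transcripts, MYC and the immediate early genes among them, are known to respond first when elongation is blocked. Toyocamycin itself has long been known for blocking the maturation of ribosomal RNA and the splicing of XBP1 mRNA.

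The DMSO library held 18448013 gene counts, replicate 1 held 16652025 and replicate 2 held 8735465. Replicate 2 stood apart in its silent genes. Of 2908 genes at 0 in all 8 DMSO libraries of the series, 10.2% had a count in replicate 1 and 92.2% had a count in replicate 2, with a median of 6 counts there. The library of 24 h had counts on 13.5% of them and the 3 libraries of 72 h on 41.7% to 46.8%. These genes together took 0.284% of the counts of replicate 2, at a median of 2.34 counts per kilobase of exon. All 12 leukocyte, 10 fibroblast, 8 endothelial, 9 neuronal, 9 hepatocyte and 7 muscle markers had counts in replicate 2, where replicate 1 had counts on 7, 5, 2, 6, 7 and 4 of them. The summed level of those 6 lists ran from 1.22 to 33.7 CPM (counts relative to the scaled total of the library) in the DMSO library, from 1.86 to 38.6 in replicate 1 and from 16.1 to 47.1 in replicate 2. The 13 colon epithelium markers summed to 1811 CPM in the DMSO library, 5238 in replicate 1 and 4408 in replicate 2, so the epithelial label held in all 3. Most results below are therefore given with both treated libraries, in a fit of all 17 libraries. They are given again with replicate 1 alone, in a fit of 16. Some differences between times, p-values and values under other scalings come from a single fit only. In the fit of 16 the 2 libraries of 10 h differ in batch. A batch term can be estimated there only from the libraries of 2 h, where both arms hold both batches. Where it changes a call, the value of replicate 2 against the DMSO library, both of batch 2, stands beside them.

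**Figure D1:**
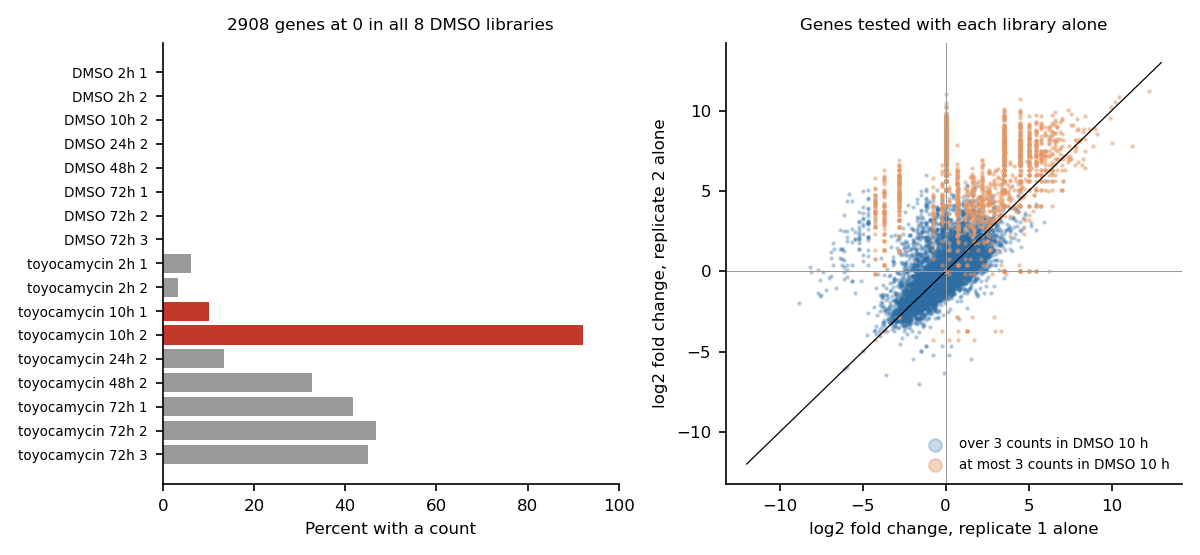
Left, percent of the 2908 genes at 0 in all 8 DMSO libraries that had a count in each of the 17 libraries (the 10 h treated libraries in red). Right, the log2 fold change of each tested gene at 10 h with replicate 1 alone (x axis) and with replicate 2 alone (y axis), with the line of equality. Genes with at most 3 counts in the DMSO library (orange) lie mostly above the line, since replicate 2 has counts on 92.2% of the silent genes and replicate 1 on 10.2%.

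A large part of the transcriptome differed between toyocamycin and DMSO at 10 h. With both treated libraries, 4033 of 16521 genes tested were lower (24.4%) and 3375 were higher (20.4%) at an adjusted p under 0.1 (quasi-likelihood F test of edgeR, p adjusted by the Benjamini-Hochberg method, as in all tests here). With replicate 1 alone, 4069 of 14519 genes were lower (28%) and 3489 were higher (24%). Both fits called 3659 genes lower (25.2%) and 2705 higher (18.6%), and 2 genes had opposite calls. Replicate 2 alone gave 4456 lower (27%) but 6447 higher (39.1%), of which 3532 had at most 3 counts in the DMSO library. Of the genes called in both fits, 3409 of the lower and 2180 of the higher were called the same way with replicate 2 alone.

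A single control library carries these contrasts, so its place among the 8 DMSO libraries of 2 to 72 h was recorded. It was the highest of the 8 for 36.2% of the genes lower in both fits and for 18.8% of all genes tested in both. It was the lowest of the 8 for 32.5% of the genes higher in both fits and for 14.8% of all. Both treated libraries lay below all 8 DMSO libraries for 3117 of the 3659 lower genes (85.2%) and above all 8 for 1842 of the 2705 higher genes (68.1%), against 26.1% and 21.4% of all genes tested. These values are relative to the scaling (trimmed mean of M-values, TMM). The median log2 fold change of all tested genes was 0.42 with both libraries and 0.00 with replicate 1 alone. It was 0.40 and -0.07 with genes at 0 in the DMSO library set at the bound that 3 counts there allow. The medians of 0.40 and -0.07 leave out genes at 0 there whose treated level did not pass that bound. Scaled on the 13 mitochondrially encoded genes, whose share of counts was 2.82% in the DMSO library, 3.3% in replicate 1 and 6.55% in replicate 2, the medians were -0.70 and -0.79 and the split became 5362 lower and 503 higher. By library size alone it was 5676 lower and 1872 higher, and with DESeq2 size factors 3370 lower and 4258 higher. With batch as a term in the fit of 17 it was 4490 lower and 6239 higher, and with the DMSO groups of all 5 times as control 4656 lower and 7800 higher. With replicate 1 alone and batch as a term, an alternative added after seeing the data, 3693 genes were lower and 3147 higher. In bulk RNA, fewer cells of a kind and less RNA per cell cannot be told apart.

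**Figure D2:**
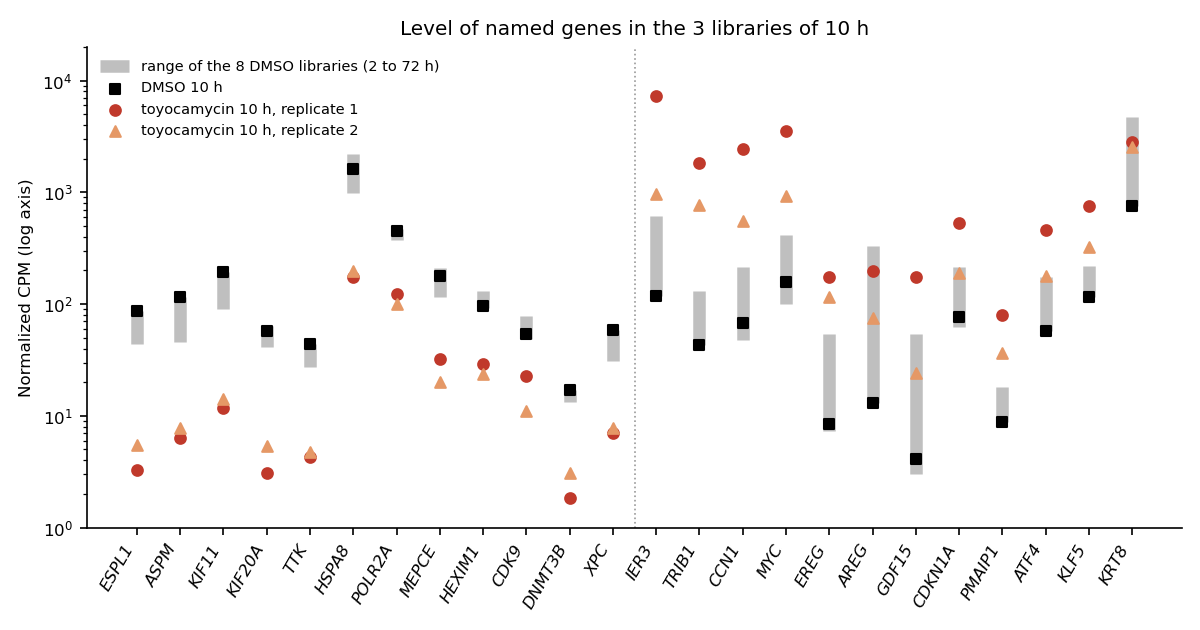
TMM-normalised CPM (log axis) of 24 named genes in the DMSO library of 10 h (squares), replicate 1 (circles) and replicate 2 (triangles), over the range of all 8 DMSO libraries (grey bars). The 12 genes on the left lie below the grey bars in both treated libraries, whereas on the right AREG, GDF15, CDKN1A and KRT8 reach into the DMSO range in 1 or both.

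Genes of mitosis and the kinetochore had the lowest median of the 43 gene lists that were counted. In both fits 42 of 50 tested members were lower and 1 was higher, against 25.2% and 18.6% of all genes. Their median log2 fold change was -2.28 with both libraries and -2.13 with replicate 1 alone, and 43 of the 50 lay below all 8 DMSO libraries in both treated libraries. The DMSO library of 10 h was the highest of the 8 for 22 of the 50. ESPL1, the separase that cuts cohesin at anaphase, had 87.0 CPM in the DMSO library, 3.28 in replicate 1 and 5.53 in replicate 2. Its lowest DMSO library held 43.7 CPM, far above both treated libraries. ESPL1 (chr12:53268299-53293638, forward strand) fell by 4.34 on the log2 scale (SE 0.29, adjusted p = 4.1e-07), and by 4.72 (SE 0.33, adjusted p = 3.53e-07) with replicate 1 alone. ASPM, which focuses the spindle poles, had 116 CPM against 6.28 and 7.74, and KIF11, the motor that separates the poles, had 194 CPM against 11.7 and 14.1. Both treated libraries thus held about the same low level of each. ASPM fell by 4.06 (4.2 with replicate 1 alone) and KIF11 (chr10:92574105-92655395) by 3.91 (4.05). KIF20A, a motor of cytokinesis that overlaps BRD8 and CDC23 on the other strand, had 57.2, 3.07 and 5.42 CPM and fell by 3.79 (4.21). TTK, a kinase of the spindle checkpoint, had 44.2, 4.28 and 4.75 CPM and fell by 3.29 (3.36). The strand setting of the deposited counts is not stated, so reads of overlapping genes on opposite strands cannot be separated here or below. The member that was higher was BIRC5, the survivin subunit of the chromosomal passenger complex. It had 181 CPM in the DMSO library, 308 in replicate 1 and 266 in replicate 2, a log2 fold change of 0.67 (SE 0.24, adjusted p = 0.0365; 0.77 with replicate 1 alone) that turned to -0.45 when scaled on the mitochondrial genes.

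Promoters of mitotic genes are known for pairing CCAAT boxes with a cell cycle homology region whose core often reads TTTGAA, so the 250 bases before the RefSeq start site were searched for both words on both strands. RefSeq promoters (GRCh38.p14) were matched for 43 of the 50 genes. CCAAT was present in 67.4% of the 43, TTTGAA in 48.8% and both in 17 (39.5%), whereas among all 27305 promoters of the table these shares were 33.0%, 13.6% and 4.85%. Among the 3063 matched promoters of all genes lower in both fits, 4.15% held both words, near the 3.50% of genes tested. The windows of 3 of the largest fallers are shown 5′ to 3′ on the gene's strand with every match to the searched words, on either strand, in capitals. The word CCAAT reads as ATTGG where it lies on the other strand, and the homology core as TTCAAA.
ESPL1, chr12:53268049-53268298, forward strand: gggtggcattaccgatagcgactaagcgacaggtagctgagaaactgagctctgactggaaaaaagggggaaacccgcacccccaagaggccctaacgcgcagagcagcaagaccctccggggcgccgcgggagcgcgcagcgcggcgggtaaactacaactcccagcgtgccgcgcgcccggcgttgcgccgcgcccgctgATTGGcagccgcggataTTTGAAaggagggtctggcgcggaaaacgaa
KIF11, chr10:92592880-92593129, forward strand: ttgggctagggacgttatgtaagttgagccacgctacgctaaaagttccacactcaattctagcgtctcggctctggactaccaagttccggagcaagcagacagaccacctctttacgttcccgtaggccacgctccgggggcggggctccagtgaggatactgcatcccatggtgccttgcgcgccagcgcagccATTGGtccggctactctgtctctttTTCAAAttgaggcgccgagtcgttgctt
ASPM, chr1:197146670-197146919, reverse strand: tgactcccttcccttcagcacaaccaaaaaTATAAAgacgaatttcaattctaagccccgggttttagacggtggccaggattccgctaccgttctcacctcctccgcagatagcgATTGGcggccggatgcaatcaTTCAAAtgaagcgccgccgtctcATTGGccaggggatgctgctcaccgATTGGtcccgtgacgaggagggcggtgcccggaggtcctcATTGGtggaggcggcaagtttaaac
In ESPL1 and KIF11 a single CCAAT word stood a short distance before a single TTTGAA word, whereas the ASPM window held 4 CCAAT words, a TTTGAA and a TATAAA. The RefSeq start of KIF11 lies inside the GENCODE gene given above. A matching word is a description of the window and not a shown site.

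DNA repair and replication genes were also mostly lower. Among 31 genes of homologous recombination and the damage checkpoint, 24 were lower in both fits, with medians of -1.31 and -1.21. CLSPN, the claspin adaptor that activates CHK1, had 99.2 CPM in the DMSO library, 13.9 in replicate 1 and 14.7 in replicate 2. It fell by 2.79 (SE 0.29, adjusted p = 4.2e-06; 2.83 with replicate 1 alone). The exonuclease EXO1 fell by 2.27 (2.20) and ATRIP, the partner of ATR, by 2.73 (2.76). ATRIP shares its strand with TREX1, so part of its counts may be ambiguous. Of 47 replication genes and E2F targets, 25 were lower and 1 higher in both fits (medians -0.68 and -0.62). Among all genes 25.2% were lower and 18.6% higher. POLA2, a subunit of the polymerase that primes DNA synthesis, had 10.8, 1.14 and 1.22 CPM and fell by 3.20 (3.23). MCM10, which helps fire origins, fell by 2.50 (2.72). TYMS, thymidylate synthase, was the member that was higher, at 13.1 CPM against 22.2 and 21.0 (log2 fold change 0.72, adjusted p = 0.0512; 0.77 and 0.0559 with replicate 1 alone), and its sign turned under mitochondrial scaling (-0.41). Of the G1 and S phase cyclins and kinases, CCNA2 fell by 2.45 (2.07) and RB1, the pocket protein that restrains E2F, by 2.09 (2.23). Both libraries were below all 8 DMSO libraries for 22 of the 31 repair genes and 31 of the 47 replication genes. Among all genes the share was 26.1%.

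The machinery around CDK9 was partly lower. Of 21 tested genes of P-TEFb and its regulators, 9 were lower and 2 higher in both fits (medians -0.42 and -0.36). Among all genes 25.2% were lower and 18.6% higher. For 11 of the 21 both treated libraries lay below all 8 DMSO libraries, against 26.1% of all genes. CDK9 itself (chr9:127785679-127790792) had 54.0 CPM in the DMSO library, 22.6 in replicate 1 and 10.9 in replicate 2. Both treated libraries were below the DMSO range of 48.6 to 78.7, and replicate 2 was the lower of them. CDK9 mRNA fell by 1.67 (SE 0.31, adjusted p = 0.000629), and by 1.25 (SE 0.26, adjusted p = 0.00137) with replicate 1 alone. The mRNAs of MEPCE, HEXIM1 and LARP7, which hold P-TEFb with the 7SK RNA, fell with it. MEPCE, the enzyme that caps 7SK, had 180, 32.1 and 20 CPM and fell by 2.78 (2.48), though it overlaps ZCWPW1 on the other strand. HEXIM1, the inhibitor of the kinase, had 95.4, 29.3 and 23.9 CPM and fell by 1.84 (1.70), and LARP7 fell by 0.85 (0.75). PPP1R10, which targets a phosphatase to RNA polymerase II, stood at 11.7 CPM in both treated libraries against 77.8 and fell by 2.73 in both fits. The scaffolds of the super elongation complex AFF1 and AFF4 fell by 1.87 (1.86) and 0.97 (0.95), and the elongation factors SUPT5H and SUPT6H by 1.30 (1.07) and 1.39 (1.40). The cyclins went another way. CCNT1 had 66.5 CPM in the DMSO library, 80.8 in replicate 1 and 86.8 in replicate 2, a log2 fold change of 0.33 that missed the threshold (adjusted p = 0.29; 0.40 with replicate 1 alone). CCNT2 was higher, at 25.8 against 49.6 and 42.3 CPM (0.83, adjusted p = 0.0524; 0.95 with replicate 1 alone), as was NELFCD, a subunit of the pausing factor NELF (0.59; 0.79), which missed the threshold with replicate 2 alone (0.36, adjusted p = 0.133). Under mitochondrial scaling CCNT1, CCNT2 and NELFCD turned to -0.82, -0.28 and -0.50.

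With TMM scaling, genes of RNA polymerase II subunits moved both ways. POLR2A, the largest subunit, had 447 CPM in the DMSO library against 122 and 100, and fell by 2.01 (SE 0.22, adjusted p = 6.02e-06; 1.87 with replicate 1 alone), and POLR2B, the next largest, fell by 2.11 (2.18). POLR2F, a small shared subunit, was higher at 64.7 CPM against 195 and 115 (1.26; 1.60). Over the 12 subunits 4 were lower and 5 higher in both fits, against 25.2% and 18.6% of all genes. Under mitochondrial scaling 4 were lower and 0 higher with both libraries. The median then turned from 0.36 to -0.75, and with replicate 1 alone from 0.52 to -0.32. CDK12 and CDK8, other kinases of transcription, fell by 1.51 (1.39) and 1.17 (1.11), whereas CCNL1, a cyclin of splicing kinases, was higher by 1.39 (1.71).

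Genes of ribosome assembly were lower while ribosomal protein genes were higher. Of 47 genes of rRNA processing and ribosome assembly, 27 were lower and 2 higher in both fits, against 25.2% and 18.6% of all genes. The median was -0.72 in each fit. For 31 of the 47 both treated libraries lay below all 8 DMSO libraries, against 26.1% of all genes. NOC3L and KRI1, nucleolar factors of early assembly, had 43.2 CPM against 3.28 and 3.43, and 60.7 CPM against 6.42 and 5.08. NOC3L fell by 3.69 (3.71) and KRI1 by 3.38 (3.23). DDX56, a nucleolar helicase, had 89.0, 12.5 and 13.5 CPM and fell by 2.78 (2.83), and WDR75, a small subunit processome member, fell by 2.42 (2.41). NHP2, a protein of H/ACA snoRNPs, was higher at 73.1 CPM against 159 and 169 (1.17; 1.13). POLR1A, the catalytic subunit of RNA polymerase I, fell by 1.87 (1.93) and POLR1D was higher by 1.30 (1.64). In contrast, 76 of 82 cytosolic ribosomal protein genes were higher in both fits (medians 1.28 and 1.37), against 18.6% of all genes. In both treated libraries 71 of the 82 lay above all 8 DMSO libraries, against 21.4% of all genes. RPS23 had 68.5 CPM in the DMSO library against 228 and 260 and rose by 1.83 (SE 0.28, adjusted p = 0.000127; 1.74). Ribosomal protein genes have many processed copies in the genome and only uniquely mapped reads were counted, so their levels are uncertain. The median of the list stayed above 0 under mitochondrial scaling but shrank to 0.17 (0.52 with replicate 1 alone), and at most 1 of the 82 genes was then called higher in either fit. EEF1A1, the elongation factor that brings tRNA to the ribosome, rose from 11927 CPM to 28719 and 31221 (1.33; 1.27). Of 20 cytosolic aminoacyl-tRNA synthetases 12 were lower and 2 higher in both fits, against 25.2% and 18.6% of all genes. AARS1 was down by 1.81 (1.94), TARS1 down by 2.02 (1.83) and QARS1 up by 0.89 (0.85). QARS1 turned to -0.27 under mitochondrial scaling.

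Nuclear genes of oxidative phosphorylation were higher together with the ribosomal proteins. Of 77 members 58 were higher and 1 lower in both fits (medians 1.07 and 1.16), and the median turned to -0.06 with both libraries under mitochondrial scaling while it was 0.32 with replicate 1 alone, and the genes called higher then numbered 2 and 1. Among all genes 18.6% were higher and 25.2% lower in both fits. The DMSO library of 10 h was the lowest of the 8 for 32 of the 77, against 14.8% of all genes. Both treated libraries were above all 8 for 50 of the 77, against 21.4% of all genes. NDUFA11, a subunit of complex I, had 1.10 CPM in the DMSO library, 19.1 in replicate 1 and 7.41 in replicate 2 and rose by 3.61 (4.12). NDUFV3, an accessory subunit, was the lower member, at 38.1 against 13.5 and 7.85 CPM (fell by 1.82; 1.49). The mitochondrially encoded genes were less even between libraries. MT-ND5, a complex I subunit, had 1441 CPM in the DMSO library, 3192 in replicate 1 and 7669 in replicate 2. Of the 13 genes 8 were higher with both libraries, 5 with replicate 1 alone and 12 with replicate 2 alone. With batch as a term all 13 were higher in either fit (medians 1.91 with both libraries and 1.96 with replicate 1 alone).

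**Figure D3:**
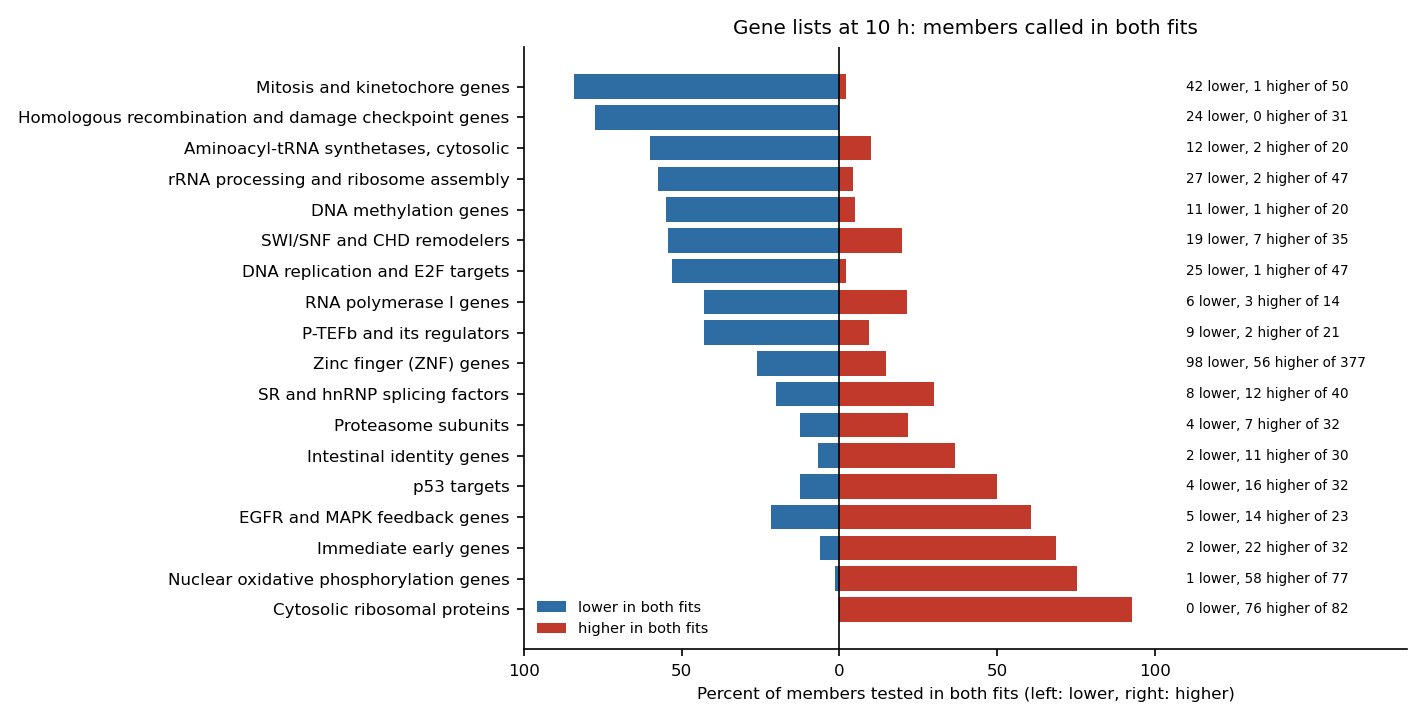
Percent of the members tested in both fits of 18 gene lists that were lower (blue, left) or higher (red, right) in both fits, with the counts at the right. Mitosis and repair genes lie at the lower end and ribosomal protein, oxidative phosphorylation and immediate early genes at the higher end, against 25.2% lower and 18.6% higher among all genes tested.

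Immediate early genes, which are transcribed within minutes of a stimulus, were higher as a list, with FOS as an exception. In both fits 22 of 32 were higher and 2 lower, and with replicate 1 alone 29 were higher (medians 1.61 and 2.22). The 2 treated libraries differed in size of effect here, and with replicate 2 alone the median was 0.53, with 15 genes higher and 6 lower. Mitochondrial scaling left 11 higher with both libraries. Among all genes 18.6% were higher and 25.2% lower in both fits. Only 11 of the 32 had both treated libraries above all 8 DMSO libraries, against 21.4% of all genes. The DMSO library of 10 h was the lowest of the 8 for 13 of the 32, against 14.8% of all genes. IER3, an early gene that modulates MAPK signaling, had 118 CPM in the DMSO library, 7236 in replicate 1 and 973 in replicate 2. Both treated libraries lay above the DMSO range of 118 to 609, replicate 1 by far the more. IER3 rose by 5.12 (SE 0.94, adjusted p = 0.000542), by 5.94 (SE 0.54, adjusted p = 2.1e-06) with replicate 1 alone and by 3.04 with replicate 2 alone. TRIB1, a pseudokinase scaffold, had 42.8, 1819 and 774 CPM and rose by 4.92 (5.42), and CCN1, a secreted matricellular protein, had 68.3, 2437 and 559 CPM and rose by 4.45 (5.16). In contrast, FOS had 423 CPM in the DMSO library, 154 in replicate 1 and 45.0 in replicate 2 and fell by 2.08 (1.45), and DUSP1, the phosphatase that ends MAPK signaling, had 27.8, 9.92 and 4.2 CPM and fell by 1.94 (1.48). For both genes the treated libraries were below the lowest DMSO library, at 187 CPM for FOS and 14.1 for DUSP1.

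MYC stood out in its network. Its mRNA (chr8:127735434-127742951) had 158 CPM in the DMSO library, 3530 in replicate 1 and 927 in replicate 2, where the 8 DMSO libraries ran from 101 to 418. Both treated libraries were above all of them, and replicate 1 was the higher of them. MYC rose by 3.82 (SE 0.66, adjusted p = 0.000361), by 4.49 (SE 0.45, adjusted p = 4.98e-06) with replicate 1 alone and by 2.55 with replicate 2 alone. Of the 13 network members tested, 4 were lower and 3 higher in both fits, against 25.2% and 18.6% of all genes. MXI1 and MNT, repressors that compete with MYC for MAX, were higher at 0.82 (1.05) and 0.84 (1.04), both turning negative under mitochondrial scaling (-0.27 and -0.25). MLX, the partner of the glucose-responsive branch, fell by 1.44 (1.41), and MYCL, the paralog, had 12.6, 1.5 and 3.65 CPM and fell by 2.36 (3.06).

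The receptor and the ligands of the epidermal growth factor pathway moved apart. EGFR (chr7:55019017-55211628) had 1057 CPM in the DMSO library, 318 in replicate 1 and 209 in replicate 2, both below the lowest DMSO library of 721. It fell by 2.00 (SE 0.24, adjusted p = 1.54e-05; 1.73 with replicate 1 alone). The ligand gene EREG (chr4:74365145-74388749) had 8.39 CPM against 174 and 115 and rose by 4.10 (SE 0.35, adjusted p = 1.23e-06; 4.37). AREG, its neighbour (chr4:74445136-74455005), had 12.9 CPM against 199 and 75.7 and rose by 3.42 (3.95). The DMSO libraries reached 53.5 CPM for EREG, below both treated libraries, but 334 CPM for AREG, above both. Against the mean of the DMSO groups of all 5 times AREG was higher by 1.27. Of the 23 genes of EGFR and MAPK feedback, IER3 among them, 14 were higher and 5 lower in both fits. Among all genes 18.6% were higher and 25.2% lower.

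The TATAAA word was sought in the same windows because fast-induced genes often carry a TATA box. It was present in 7 of 24 matched promoters of immediate early genes (29.2%), in 2 of 16 of the EGFR and MAPK list (12.5%), in 7.22% of genes higher in both fits, in 3.56% of genes lower in both fits, in 6.34% of genes tested and in 11.1% of all promoters. The 2 ligand promoters and that of GDF15 are shown with matches to the TATA word, to the CCAAT box and to the cAMP response word TGACGTCA in capitals.
EREG, chr4:74364895-74365144, forward strand: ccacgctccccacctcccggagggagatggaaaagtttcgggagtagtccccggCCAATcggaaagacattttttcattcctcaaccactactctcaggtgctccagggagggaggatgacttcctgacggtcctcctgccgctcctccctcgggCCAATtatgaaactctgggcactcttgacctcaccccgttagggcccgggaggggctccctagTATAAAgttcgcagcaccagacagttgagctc
AREG, chr4:74444886-74445135, forward strand: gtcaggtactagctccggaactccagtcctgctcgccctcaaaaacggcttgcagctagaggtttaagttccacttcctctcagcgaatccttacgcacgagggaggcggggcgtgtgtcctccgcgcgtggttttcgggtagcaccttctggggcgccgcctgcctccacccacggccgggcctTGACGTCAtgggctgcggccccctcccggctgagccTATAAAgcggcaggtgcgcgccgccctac
GDF15, chr19:18385908-18386157, forward strand: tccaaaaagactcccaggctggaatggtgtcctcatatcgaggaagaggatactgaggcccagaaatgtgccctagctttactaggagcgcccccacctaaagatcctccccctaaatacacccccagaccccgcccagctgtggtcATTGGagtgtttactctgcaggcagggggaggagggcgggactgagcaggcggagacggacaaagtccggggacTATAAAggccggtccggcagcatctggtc
All 3 windows held a TATAAA near the start site, and the AREG window held a TGACGTCA, a word found in 1.77% of all promoters.

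Stress and cell death genes gave a mixed picture. Of 32 p53 targets, 16 were higher and 4 lower in both fits, against 18.6% and 25.2% of all genes. Their medians were 0.86 and 0.95, but -0.19 and 0.11 under mitochondrial scaling. Replicate 2 alone gave a median of 0.33, near the 0.30 of all genes in that fit, with 12 higher and 5 lower. Library size gave 10 higher and 9 lower, and mitochondrial scaling 2 higher and 6 lower. GDF15, a secreted stress cytokine, had 4.09 CPM in the DMSO library, 175 in replicate 1 and 24.2 in replicate 2. The DMSO libraries reached 54.5 CPM, above replicate 2 and below replicate 1. GDF15 rose by 4.61 (SE 0.92, adjusted p = 0.00105; 5.42 with replicate 1 alone; 2.56 with replicate 2 alone). CDKN1A, the p21 inhibitor of cell cycle kinases, had 77.0, 535 and 188 CPM over a DMSO range of 62.0 to 217 and rose by 2.23 (2.80). PMAIP1 (NOXA) and BBC3 (PUMA), both triggers of apoptosis of the BCL2 family, differed in how well the libraries matched. PMAIP1 had 8.82, 79.5 and 36.5 CPM, with both treated libraries above the DMSO maximum of 18.2, and rose by 2.72 (3.18). BBC3 had 12.6, 107 and 20.1 CPM and rose by 2.34 (3.09), but replicate 2 lay within the DMSO range of 10.0 to 28.9 and alone gave 0.68 (adjusted p = 0.153). BCL2L1, the protective BCL-XL gene, rose by 1.48 (1.87) and BAK1, a pore former, fell by 1.94 (1.70). The p53 targets XPC and POLH, both repair genes, went down rather than up. XPC had 58.8, 7.07 and 7.85 CPM and fell by 2.98 (3.05), and POLH fell by 2.26 (2.32).

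ATF4, the factor made under amino acid and folding stress, rose from 57.7 CPM to 464 and 177 (2.48; 3.02) and ATF3 from 2.19 to 39.6 and 11.2 (3.55; 4.18). The wider list of 30 ATF4 and CHOP genes did not follow as a whole, with 8 higher and 3 lower in both fits. Of 30 XBP1 and ER folding genes 9 were higher and 6 lower in both fits (medians 0.15 and 0.30). Among all genes 18.6% were higher and 25.2% lower. Heat shock genes were lower more often than higher, 10 against 4 of the 27 tested in both fits, beside 25.2% and 18.6% of all genes. HSPA8, the constitutive HSP70, had 1603 CPM in the DMSO library, 173 in replicate 1 and 197 in replicate 2, with the lowest DMSO library at 987. It fell by 3.11 (SE 0.24, adjusted p = 5.94e-07; 3.20). STIP1 and DNAJB1, cochaperones of HSP90 and HSP70, fell by 1.98 (1.94) and 1.69 (1.45). HSPB1, a small heat shock protein, was higher at 148 against 568 and 216 CPM (1.41; 1.95), though not with replicate 2 alone (0.55, adjusted p = 0.111).

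Genes of DNA methylation, a mark of silent promoters, and of chromatin remodeling were lower more often than higher. Of 20 DNA methylation genes 11 were lower in both fits (medians -0.83 and -0.82), against 25.2% of all genes. DNMT3B, a de novo methyltransferase, had 17 CPM against 1.86 and 3.09 and fell by 2.82 (SE 0.42, adjusted p = 9.76e-05; 3.18). UHRF1, which guides the maintenance enzyme, had 211, 61.9 and 29.0 CPM and fell by 2.21 (1.76). Of 35 SWI/SNF and CHD remodelers tested in both fits 19 were lower and 7 higher, against 25.2% and 18.6% of all genes. SMARCAD1 fell by 2.89 (2.55) and SMARCA5 by 2.08 (2.17), while CHD2 rose from 57.5 CPM to 196 and 124 (1.48; 1.77).

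Silent tumor suppressor genes could not be read from both libraries alike. Of 34 counted genes that are often methylated in colon cancer, 25 had at most 3 counts in the DMSO library of 10 h. Of 29 tested with both libraries 7 were higher, and of 21 tested with replicate 1 alone 5 were higher, and those 5 were higher in both fits. Among all genes tested, 20.4% were higher with both libraries and 18.6% in both fits. With genes at 0 in the DMSO library set at their bound, the medians were 2.34 with both libraries and 0.61 with replicate 1 alone. Genes at 0 there whose treated level did not pass that bound were left out. These medians can thus cover fewer genes than the 29 and 21. Clustered protocadherins showed the same limit, with 32 of 52 at or under 3 counts, 5 of 35 higher in both fits and bounded medians of 1.98 and 0.75.

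Some genes at or near 0 in the DMSO library rose in both treated libraries, well past the median of 6 counts that silent genes had in replicate 2. WDR38, which overlaps RPL35 on the other strand, had 0 counts in the DMSO library, 458 in replicate 1 and 147 in replicate 2, at least 258-fold higher and at least 128-fold higher (against 3 counts, counting error only). BAAT, which conjugates bile acids, had 0, 135 and 118 counts (at least 76.2-fold and 103-fold), ZDBF2, an imprinted gene, 0, 113 and 93 (at least 63.7-fold and 81.2-fold), and MN1, a transcriptional cofactor, 0, 94 and 74 (at least 53-fold and 64.6-fold). BAAT, ZDBF2 and MN1 had somewhat higher CPM in replicate 2, whereas WDR38 had 32.7 CPM in replicate 1 and 16.2 in replicate 2. RNF225 was less even, with 0, 228 and 14 counts (at least 129-fold and 12.2-fold). NPR3, a clearance receptor for natriuretic peptides, had 2 counts against 124 and 83, a ratio of 105 (95% exact interval 28.4 to 876) and of 109 (29.1 to 912). Of the 2705 genes higher in both fits, 345 had at most 3 counts in the DMSO library.

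Markers of the intestinal epithelium were higher more often than lower. Of 30 intestinal identity genes tested in both fits 11 were higher and 2 lower, against 18.6% and 25.2% of all genes. The medians were 1.04 over the 33 tested with both libraries and 1.03 with replicate 1 alone, and with mitochondrial scaling at most 1 gene was called higher in either fit. KRT8, a simple epithelial keratin that overlaps KRT18 on the other strand, had 752 CPM in the DMSO library, 2850 in replicate 1 and 2567 in replicate 2. It rose by 1.85 (SE 0.25, adjusted p = 3.99e-05; 1.93), yet the DMSO libraries of other times reached 4689 CPM. KLF5, a factor of proliferating crypt cells, had 115, 755 and 324 CPM, both above the DMSO maximum of 218, and rose by 2.23 (2.72). HNF4A, a nuclear receptor of the gut epithelium, fell by 1.39 (1.28). Of the Wnt targets, SOX9 rose from 338 CPM to 2185 and 700 (2.09; 2.7), and EPHB3, a receptor that positions crypt cells, fell from 26.8 to 6.07 and 3.21 (fell by 2.49; 2.14).

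The effect at 10 h differed from that at 2 h for many genes. The 2 times share no library, so the difference of their effects could be tested in the same fit. It was below that at 2 h for 2625 genes (15.9%) and above for 1683 (10.2%) with both libraries, and for 2960 (20.4%) and 2592 (17.9%) with replicate 1 alone. Both fits called 2462 below (17%) and 1534 above (10.6%). Replicate 2 alone gave 3146 below (19.1%) and 2959 above (17.9%). At 2 h 812 genes were lower (4.91%) and 29 higher (0.176%), or 1217 (8.38%) and 74 (0.51%) in the fit of 16. Of those 812, 481 were also lower at 10 h, 74 were higher and 257 were neither. In the fit of 16, 653 of the 1217 were also lower at 10 h, 200 were higher and 364 were neither. For 39 of the 50 mitosis genes the effect at 10 h was below that at 2 h in both fits, and their median was -0.03 at 2 h. Of the 32 immediate early genes 24 had a higher effect at 10 h than at 2 h in both fits, with a median of -0.55 at 2 h. MYC was at 114 and 92.9 CPM on toyocamycin and 239 and 101 on DMSO at 2 h, a log2 fold change of -0.71 that missed the threshold (adjusted p = 0.793). Its effect at 10 h was above that by 4.53 (adjusted p = 0.000924; 5.20 with replicate 1 alone). Of the ribosomal protein genes 55 of 82 and of the oxidative phosphorylation genes 33 of 77 had a higher effect at 10 h than at 2 h.

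Some genes were already low at 2 h. PPP1R10 had 13.1 and 10.4 CPM on toyocamycin against 102 and 81.3 on DMSO at 2 h, and the difference between the effects was 0.23 (adjusted p = 0.674). EPHB3 fell by 2.92 at 2 h and by 2.49 at 10 h, with a difference of 0.43 (adjusted p = 0.519). MEPCE fell by 1.98 at 2 h and by 2.78 at 10 h, with a difference of -0.80 (adjusted p = 0.158). These p-values do not show that the effects were equal. CCNT1 changed place between the times. It was lower at 2 h (-0.94, adjusted p = 0.0164), 0.33 at 10 h and 2.26 at 24 h, and the effect at 10 h was above that at 2 h by 1.27 (adjusted p = 0.0139; 1.23 with replicate 1 alone) and below that at 24 h by 1.93 on the log2 scale. Of 377 zinc finger (ZNF) genes tested in both fits, 134 were lower at 2 h in the fit of 16. At 10 h 84 of the 377 had a higher effect than at 2 h and 29 a lower, with medians of -0.63 at 2 h and -0.23 at 10 h with replicate 1 alone.

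In both fits 71 genes were lower at 2 h and higher at 10 h. BIRC3, an inhibitor of apoptosis downstream of NF-kappaB, had 2.11 and 2.65 CPM on toyocamycin against 5.81 and 11.8 on DMSO at 2 h. At 10 h it had 25.6 and 20.9 CPM against 3.67. It thus fell by 1.88 at 2 h (adjusted p = 0.00484) and rose by 2.66 at 10 h (adjusted p = 0.000259; 2.80 with replicate 1 alone). JCAD, a junction protein, fell by 1.06 and then rose by 2.94 (3.02), and NR4A3, an orphan nuclear receptor, fell by 2.37 and then rose by 1.23 (1.48).

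Against 24 h, where each arm has 1 library, the effect at 10 h was lower for 2324 genes (14.1%) and higher for 1754 (10.6%), and with replicate 1 alone for 2536 (17.5%) and 2083 (14.3%). Replicate 2 alone gave 3273 (19.8%) and 2874 (17.4%). Both fits shared 2220 (15.3%) and 1598 (11%). The p53 targets were still below their later level, since 17 of 32 had a lower effect at 10 h in both fits, with medians of 0.95 with replicate 1 alone and 2.69 at 24 h. CDKN1A had 2825 CPM on toyocamycin at 24 h and MYC 11735 CPM. Of the 377 ZNF genes 152 had a lower effect at 10 h and 5 a higher, with a median of 1.04 at 24 h. Genes of rRNA processing were lower at 10 h than later, with 20 of 47 below and 1 above their effect at 24 h and a median of -0.05 there. Nuclear oxidative phosphorylation genes showed the reverse, with 14 of 77 above and 2 below. The mitosis genes were at -2.13 with replicate 1 alone and -2.10 at 24 h, with 3 below and 6 above. Under mitochondrial scaling few genes were called different between 10 and 24 h (2 below, 122 above). Few calls do not show that the effects were equal. The mitochondrial share varied among like libraries, at 1.42% and 3.47% in the DMSO libraries of 2 h.

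**Figure D4:**
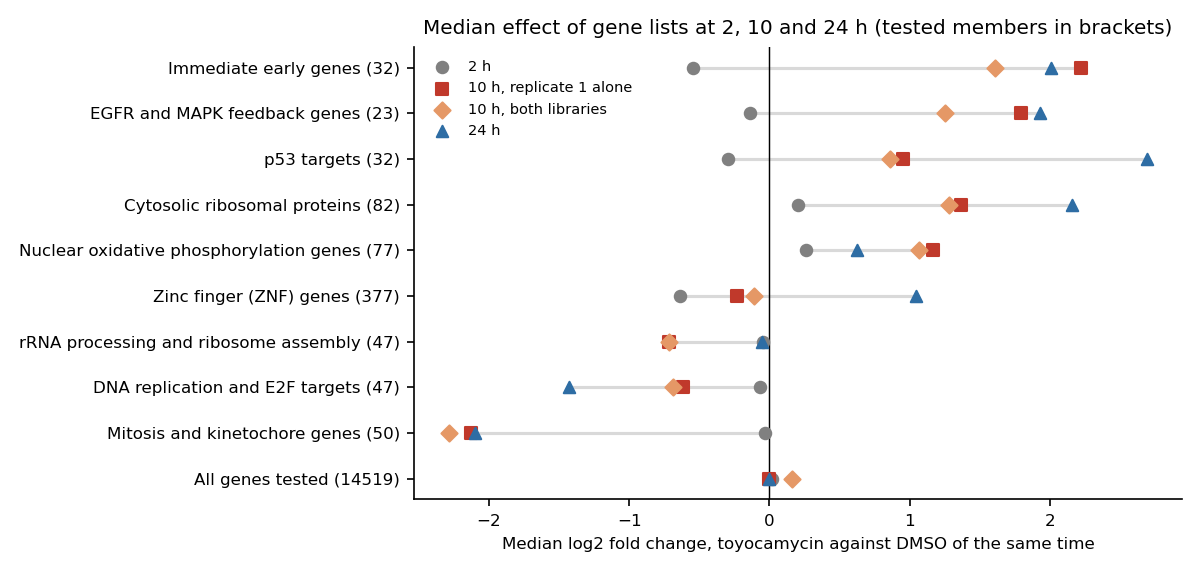
Median log2 fold change of toyocamycin against the DMSO libraries of the same time for 9 gene lists and all 14519 genes tested in both fits, at 2 h (circles), at 10 h with replicate 1 alone (squares) or both libraries (diamonds), and at 24 h (triangles). Mitosis genes go from -0.03 at 2 h to -2.13 at 10 h with replicate 1 alone, and immediate early genes from -0.55 to 2.22.

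Genes with many exons were lower more often. Tested genes were split into 5 groups of 2898 by the number of exons in GENCODE v44. From the group with a median of 3 exons to that with 23, the median log2 fold change went from 0.70 to -0.44 with both libraries and from 0.39 to -0.70 with replicate 1 alone. The share of lower genes with replicate 1 alone went up with it, from 16.5% to 47.8%, and the share of higher genes dropped from 33.7% to 13.9%. By genomic length the medians went from 0.51 in the shortest group (median 5143.5 bases) to -0.33 in the longest (163036 bases) with replicate 1 alone, and from 0.74 to -0.10 with both. At 2 h the medians of the exon groups stayed between 0.00 and 0.06. The median level of the groups also moved with exon number, from 3.45 to 4.64 on the log2 CPM scale, and its part in the trend was not tested.

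**Figure D5:**
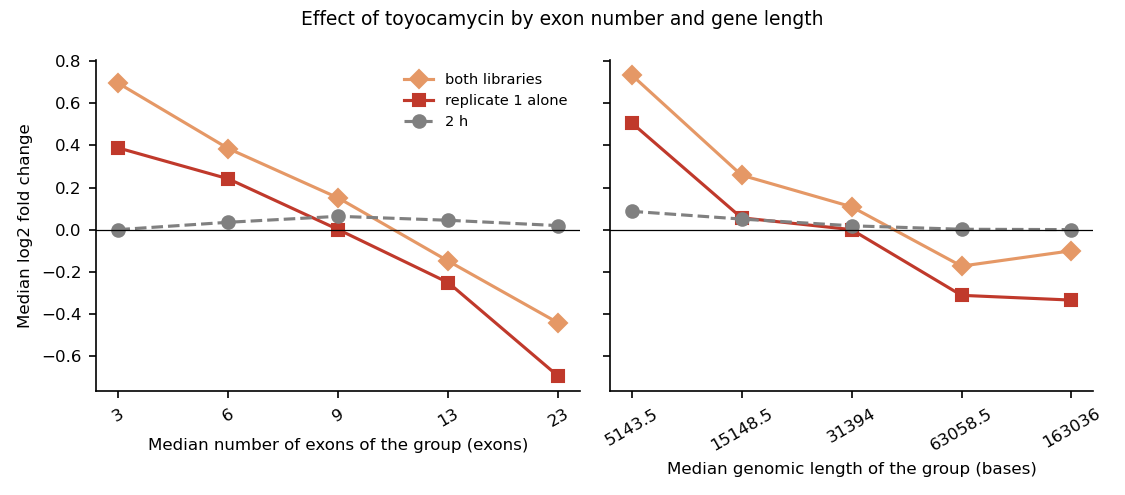
Median log2 fold change of the tested genes in 5 equal groups by exon number (left) and by genomic length (right), with both 10 h libraries (diamonds), with replicate 1 alone (squares) and at 2 h (circles, dashed). Axis labels give the median of each group. The 10 h medians go down from 0.39 to -0.70 over the exon groups with replicate 1 alone, while those of 2 h stay near 0.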

How the data were processed

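RNA of toyocamycin- and DMSO-treated YB5 cells was sequenced over 2 to 72 h, and the 17 labelled libraries entered the fits. The authors aligned reads to GRCh38 with STAR (2.7.5a per the submitters' processing notes) and deposited raw counts of uniquely mapped reads per gene for 19141 genes. The strand setting is not given in the sources used here. The deposited table of the authors' own fold changes and p-values was not used, nor was 1 count column that is named as a DMSO library of 10 h but has no sample label. Symbols were matched for 18868 genes and GRCh38 positions (GENCODE v44) for 19080. Total counts ran from 8735465 to 22121364 per library. Intervals and floors (3 counts) cover counting error only.

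Counts were fitted with edgeR 4.0.16 in R 4.3.3 (filterByExpr, TMM, glmQLFit with 1 coefficient per treatment and time, glmQLFTest) and called where the p adjusted by the Benjamini-Hochberg method was under 0.1, the study's threshold. The fit used all 17 libraries and was repeated with the 16 without toyocamycin 10 h replicate 2, with filter and scaling redone. With 1 DMSO library at 10 h the spread came from the other groups. Each SE is the absolute log2 fold change divided by the square root of the F statistic of the test. The legacy form of glmQLFit was used. With both libraries the edgeR 4 form gave 4212 genes lower and 4014 higher at 10 h. Differences of effects between times were contrasts in the same fits. Gene lists are given as counts and medians without a set test. The code was tested on simulated counts. Alternatives were DESeq2 1.42.0, other scalings, filters, thresholds, batch, a replicate block, other controls and libraries left out. Summaries used Python 3.11.15 with pandas 2.3.3.

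Named genes were the 12 largest rises and 12 largest falls called in both fits whose log2 CPM averaged 4 or more, with both treated libraries beyond the DMSO library, every tested member of the P-TEFb and MYC lists, up to 3 rising and 3 falling members of each other list, the 5 largest of the genes lower at 2 h and higher at 10 h, and the 5 on which the treated libraries differed most. Not every named gene is printed, and some items are not reported here. The 43 lists and 7 marker lists were chosen with earlier results of these data known.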

Additional observations from a re-analysis of the deposited data

Results flagged for a closer look

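Genes called lower at 2 h and higher at 10 h in both fits were singled out and ranked by the difference of the 2 effects. The adjusted p-values of that difference (edgeR's quasi-likelihood F test, Benjamini-Hochberg adjusted) rest on the same values as the choice. They therefore add no support of their own. The 5 with the largest difference are given as the log2 effect at 10 h minus that at 2 h, with both treated libraries. BARX2, a homeobox gene, differed by 6.20 (adjusted p = 0.000143), with 3 counts in the DMSO library of 10 h, 33 in replicate 1 and 16 in replicate 2. Those counts give ratios of 18.6 (95% exact interval 5.84 to 94.9) and 14.0 (4.0 to 74.8). BIRC3 differed by 4.55 (adjusted p = 0.00012; 4.69 with replicate 1 alone). JCAD differed by 4.01 (adjusted p = 4.36e-05), with 8.92 and 7.96 CPM against 1.10 at 10 h. NR4A3 differed by 3.60 (adjusted p = 0.000164), with 5.85 and 3.87 CPM against 2.11 at 10 h. KBTBD8, a substrate adaptor of a ubiquitin ligase, differed by 3.32 (adjusted p = 0.00139), with 9.14 and 12.3 CPM against 2.99 at 10 h. The cause of these differences was not tested.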

How the results depend on the processing

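The DMSO arm of 10 h rests on 1 library, so leaving it out gave no contrast. Counts of genes at 10 h ran from 4069 to 4456 lower and from 3489 to 6447 higher when a treated library was left out, the highest being without replicate 1. Against 2 h, leaving out 1 library gave 2124 to 3146 genes below and 1243 to 2959 above, and against 24 h 2536 to 3273 below and 2083 to 2874 above. Genes higher at 10 h numbered 1872 by library size alone, 503 on mitochondrial scaling, 6239 with batch as a term, 2039 at a minimum fold of 1.5, 1764 with the libraries of 2 and 10 h only and 7800 against the DMSO groups of all 5 times. With replicate 1 alone, alternatives added after seeing the data gave 6266 lower and 1755 higher by library size and 304 higher on mitochondrial scaling. Genes below their effect at 2 h numbered 4134 by library size, 1641 at a fold of 1.5 and 1666 with the libraries of 2 and 10 h only. Genes above it numbered 896 by library size, 136 on mitochondrial scaling, 3050 by DESeq2's Wald test, 2530 with batch, 786 at a fold of 1.5, 598 with 2 and 10 h only and 1026 at an adjusted p under 0.05. Against 24 h, 1301 were below and 3378 above by library size, 2 below and 122 above on mitochondrial scaling, and 1052 above at a fold of 1.5. The cause of these shifts was not tested. Across treatments the 10 h arms share 1 replicate number. Same-numbered libraries correlated in their deviations by 0.766 at 2 h, where the number is also the batch in both arms. At 72 h, where all libraries carry batch 1, the values were -0.454, 0.327 and -0.382. The main fits did not take the numbers as pairs, so their effects at 2 h leave this shared batch out. With the replicate block 3937 genes were lower and 2869 higher at 10 h, 2595 below and 1420 above their effect at 2 h, and 2431 below and 1737 above that at 24 h. Signs turned on mitochondrial scaling for BIRC5 (-0.45), CCNT1 (-0.82), CCNT2 (-0.28), NELFCD (-0.50), MXI1 (-0.27), MNT (-0.25), TYMS (-0.41), QARS1 (-0.27), ISG15 (-0.10) and ADM (-0.49). They turned by library size for CCNT1 (-0.12) and ADM (-0.080), without replicate 1 for SOWAHD (from -1.37 to 2.75 over the treated libraries left out), ADM (-2.26 to 1.27) and CITED4 (-1.37 to 1.82), with batch for ADM (-0.64) and CITED4 (-0.37), and against all DMSO groups for ADM (-0.91). Named genes were checked only with each treated library left out, other scalings, batch, and the DMSO groups of all 5 times as control. Of their values under those alternatives, 839 kept direction and side of the threshold, 18 changed sign, 39 lost the call and 7 gained it.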

Other observations

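Interferon-stimulated genes were lower more often than higher at 10 h, with 11 of 27 lower and 2 higher in both fits. Among all genes 25.2% were lower and 18.6% higher. The medians of the list were -0.34 with both libraries, -1.23 with replicate 1 alone and -0.17 with replicate 2 alone. Against the DMSO groups of all 5 times the median was 0.017. The DMSO library of 10 h was the highest of the 8 for 13 of the 27. IFIT3, an RNA-binding antiviral protein, had 4.05 CPM in the DMSO library against 0.50 and 1.11 and fell by 2.38 on the log2 scale (3.00 with replicate 1 alone). SAMD9, an antiviral factor, had 16 CPM against 2.21 and 4.09 and fell by 2.38 (2.84), whereas ISG15, a ubiquitin-like protein, rose by 1.04 (1.06). Among 18 circadian clock genes tested in both fits, 5 were lower and 3 higher, near the 25.2% and 18.6% of all genes. BHLHE40, a repressor of the clock, had 9.62 CPM against 213 and 80.6 and rose by 3.93 (4.47). NR1D1, which overlaps THRA on the other strand, had 5.57 CPM against 54.4 and 17.7 and rose by 2.7 (3.29), and CRY2 fell by 1.82 (1.53). Of 25 NRF2 genes tested in both fits 10 were higher and 4 lower, against 18.6% and 25.2% of all genes. TXN (1.64; 1.72) and FTL (1.61; 1.79) were among the higher. Under mitochondrial scaling the median of the list was -0.42 with both libraries and -0.56 with replicate 1 alone. FASN, the fatty acid synthase, rose by 1.62 (2.03) and SQLE, an enzyme of cholesterol synthesis, fell by 2.15 (2.17). The zinc exporter SLC30A1 had 41.0 CPM against 271 and 180 and rose by 2.46 (2.73). HOXA13 fell by 3.10 (3.37) and HOXB2 rose by 2.58 (3.26).

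On some genes the treated libraries went opposite ways. CITED4 had 19.8 CPM in the DMSO library, 69.4 in replicate 1 and 7.63 in replicate 2. ADM had 5.86, 14.1 and 1.22 CPM and SOWAHD 1.73, 11.6 and 0.663 CPM. SYNE1, which overlaps ESR1, had 1 count in the DMSO library, 1 in replicate 1 and 104 in replicate 2.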
